A study of Mus musculus with 10 samples.

Results

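The potassium channel genes were taken as every protein-coding gene of the GENCODE M21 annotation whose symbol begins with Kcn, matched to the count table by Ensembl identifier. There were 94 such genes among the 51789 genes of the table. Of these, 43 genes had 10 or more counts in at least 5 libraries and entered the test, and 51 genes did not. The members fell into 6 roles, which were voltage-gated pores, electrically silent modifiers, accessory subunits, inward rectifiers, tandem-pore leak channels and channels opened by calcium or sodium.

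RNA-Seq was performed on cardiomyocytes isolated from the heart 4 days after myocardial infarction (MI) in 5 mice with cardiomyocyte-specific overexpression of G protein-coupled receptor kinase 5 (TgGRK5-MI) and in 5 non-transgenic littermate controls (NLC-MI). The comparison addresses whether the transgene alters gene expression in infarcted hearts. All 10 mice were infarcted by ligation of the left coronary artery, and no sham-operated library was analysed here, so a response to infarction itself cannot be read from these data. The study used adult mice of both sexes, but all 10 libraries here held Y-linked RNA and almost no Xist, the pattern of male mice. The promoter that drives the transgene is not given in the sources used here.

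Libraries held 7968779 to 23381527 counts in NLC-MI and 9114469 to 22231424 counts in TgGRK5-MI. Values are given as CPM, that is counts scaled to a common library size with the TMM factors of edgeR, and 3 counts, taken as the floor, were worth 0.121 to 0.393 CPM. Grk5 itself was at 46.5 to 73.0 CPM in NLC-MI and at 553 to 1701 CPM in TgGRK5-MI, which fitted the label of every library. The cardiomyocyte markers Myh6, Tnnt2, Tnni3, Actc1, Ttn, Myl2, Myl3, Mb, Ckm and Pln had group means from 1610 CPM (Ckm) to 29590 CPM (Myh6), and 0 of these 10 markers had an unadjusted p under 0.05. RNA of other cells was present, since the summed fibroblast markers ran from 3991 to 23980 CPM in NLC-MI and from 4164 to 24610 CPM in TgGRK5-MI. The lowest fibroblast sums were those of NLC-MI replicates 3 and 5 and TgGRK5-MI replicate 3. In such bulk samples, fewer cells of a type and less RNA per cell cannot be told apart.

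Potassium channels let potassium ions leave the cell and so bring the membrane of a cardiomyocyte back to rest after each action potential. Voltage-gated pores open on depolarization and carry the transient outward and delayed rectifier currents, inward rectifiers and leak channels hold the resting potential, and accessory subunits change how pores open, close and reach the surface. Mutations in several of them, among them the genes for the pores KCNQ1 and KCNH2 and the accessory subunit KCNE1, are known causes of long QT syndrome.

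Kcne1, the accessory subunit that slows the opening of the Kcnq1 pore and so forms the slow delayed rectifier current, was the member that passed the test. Its gene (ENSMUSG00000039639) lies on the minus strand of chromosome 16, and its coding part is 387 bases long, is the same in both annotated transcripts and sits in 1 exon block. The start of that coding part is shown because it belongs to the member that changed, and 0 of its 50-base words occurred in a transcript of another gene, so its reads have no near-identical copy to be split with. The capitals mark the start codon, and the stretch is chr16:92348655-92348954 on the minus strand of GRCm38 as GENCODE M21 gives it.
Kcne1: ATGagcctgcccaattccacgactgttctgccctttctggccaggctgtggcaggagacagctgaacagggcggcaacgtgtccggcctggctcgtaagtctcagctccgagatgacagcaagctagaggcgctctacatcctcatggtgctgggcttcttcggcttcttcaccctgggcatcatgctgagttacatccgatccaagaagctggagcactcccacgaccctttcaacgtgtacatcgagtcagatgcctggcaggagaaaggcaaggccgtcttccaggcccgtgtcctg

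The upstream windows of Kcnh2, Kcnd2 and Kcnj3 are shown because these pore genes are among the 5 members with lower values described below, and the RefSeq promoter table held a window for them. Each is the 250 bases before a transcript start on GRCm38.p6, at chr5:24329592-24329841 (minus strand), chr6:21215096-21215345 (plus strand) and chr2:55435720-55435969 (plus strand). The Kcnh2 window precedes a start that lies inside the gene as GENCODE M21 draws it. Capitals mark matches to the GC box.
Kcnh2: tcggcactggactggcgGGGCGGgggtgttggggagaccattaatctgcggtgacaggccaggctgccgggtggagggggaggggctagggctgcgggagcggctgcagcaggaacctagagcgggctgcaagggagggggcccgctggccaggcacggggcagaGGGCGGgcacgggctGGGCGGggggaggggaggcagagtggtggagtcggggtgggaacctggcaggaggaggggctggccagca
Kcnd2: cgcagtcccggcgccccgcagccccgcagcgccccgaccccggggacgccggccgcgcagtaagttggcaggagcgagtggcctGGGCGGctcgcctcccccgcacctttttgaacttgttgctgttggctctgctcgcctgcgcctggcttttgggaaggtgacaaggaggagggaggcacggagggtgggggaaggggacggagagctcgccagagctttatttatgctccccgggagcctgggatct
Kcnj3: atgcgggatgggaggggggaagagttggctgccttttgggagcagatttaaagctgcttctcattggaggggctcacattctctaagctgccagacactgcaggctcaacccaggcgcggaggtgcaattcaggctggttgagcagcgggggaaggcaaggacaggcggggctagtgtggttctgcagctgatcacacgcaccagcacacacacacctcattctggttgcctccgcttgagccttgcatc

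On both strands, 6 motifs were searched in these windows, namely the MEF2 site TAAAAATA, the NFAT site TGGAAA, the E-box CACGTG, the GC box GGGCGG, the TATA box TATAAA and the GATA site AGATAA. Kcnh2 held 3 GC boxes, Kcnd2 held 1, and Kcnj3 held none of the 6 motifs. Of all 32851 windows of this length, 32.7% held a GC box, and of the 40 windows of 29 tested Kcn genes 37.5% did. The NFAT site was in 15% of the Kcn windows and 18.6% of all windows, the E-box in 12.5% and 6.02%, and the GATA site in 2.5% and 9.99%. The MEF2 site and the TATA box were in 0 of the 40 Kcn windows and in 2.45% and 12.4% of all windows. These are matches of letters and were not tested.

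Of the 43 tested members, 1 member (2.33%), Kcne1, was higher in TgGRK5-MI with an adjusted p below 0.10 (quasi-likelihood test of edgeR, Benjamini-Hochberg adjustment over all 15168 genes tested). Across all those genes, 0.0461% were higher at that threshold. At an unadjusted p under 0.05, Kcne1 was again the 1 member that was higher, against 1.74% of all genes tested, and 5 members (11.6%) were lower, against 2.1% of all genes. Those 5 were Kcnh2, Kcnk3, Kcng2, Kcnd2 and Kcnj3, and each had an edgeR adjusted p of 0.9999. The groups did not overlap for 1 member, Kcne1, where 1.02% of all genes had groups that did not overlap. The median log2 fold change over the 43 tested members was -0.19, with 14 members above 0 and 29 below 0, and over all genes tested it was 0.001, with 7604 above 0 and 7564 below 0.

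**Figure D1:**
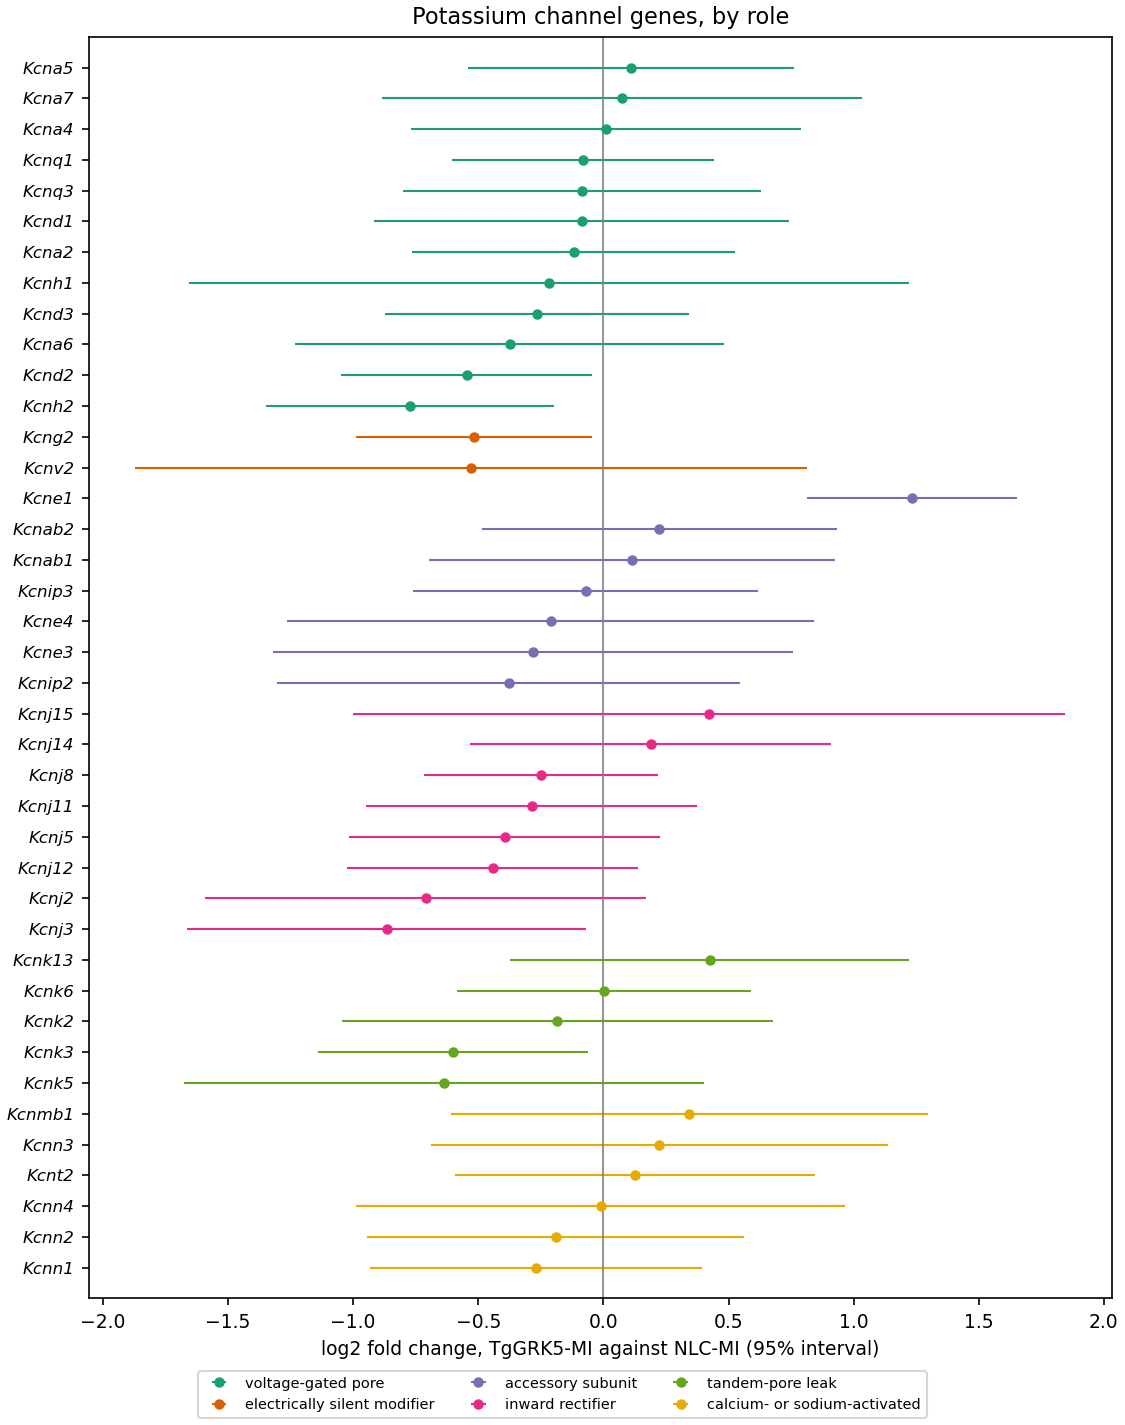
Log2 fold change of TgGRK5-MI against NLC-MI (horizontal axis) with its 95% interval for 40 of the 43 tested potassium channel genes, coloured by role and ordered within a role. Kcne1 stands apart at 1.23, and the intervals of Kcnh2, Kcnd2, Kcng2, Kcnj3 and Kcnk3 lie below 0.

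Kcne1 was at 8.50, 9.27, 16.5, 8.58 and 10.6 CPM in NLC-MI replicates 1 to 5. In TgGRK5-MI replicates 1 to 5 it was at 26.2, 26.1, 24.8, 24.3 and 23.6 CPM. All transgenic libraries exceeded all control libraries and lay close together, and NLC-MI replicate 3, the shallowest library, was the highest of its group. Kcne1 rose from 10.7 ± 3.36 to 25.0 ± 1.12 CPM (SD, n = 5 each). On the log2 scale this is a difference of 1.23 with a standard error of 0.19, a 95% interval from 0.81 to 1.65 and an edgeR adjusted p of 0.0807, or a 2.35-fold difference with an interval from 1.76 to 3.15. The two-sided exact permutation test gave p = 0.00794, the smallest that 5 against 5 libraries allow. Kcne1 lost the call in 9 of the 10 fits that leave out a library, where its edgeR adjusted p ran from 0.135 to 0.301, and kept it without NLC-MI replicate 3 (edgeR adjusted p = 0.00448). Its log2 fold change stayed between 1.16 and 1.44 in those 10 fits.

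Kcnq1, the pore that Kcne1 joins, was at 38.2, 42.0, 67.8, 82.8 and 62.5 CPM in NLC-MI and at 53.8, 34.1, 66.5, 64.3 and 58.3 CPM in TgGRK5-MI. The groups overlapped, with NLC-MI replicates 3 and 4 above every TgGRK5-MI library and TgGRK5-MI replicate 2 below every NLC-MI library. The means were 58.7 ± 18.6 and 55.4 ± 12.9 CPM, and the log2 fold change was -0.08 with a 95% interval from -0.61 to 0.44. Kcnq1 shares 121 exon bases with the antisense RNA Kcnq1ot1, whose row held 171 to 382 counts, and the strand setting of the counting is not given in the sources used here.

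Per kilobase of merged exons, Kcne1 stood at 0.283, 0.281, 0.31, 0.132 and 0.216 of the level of Kcnq1 in NLC-MI replicates 1 to 5. In TgGRK5-MI the ratio was 0.619, 0.974, 0.475, 0.481 and 0.516. The ratio did not overlap between the groups and had means of 0.245 ± 0.0719 and 0.613 ± 0.21, but it holds the same Kcne1 values that were tested above and was given no test. The other accessory-to-pore and pore-to-pore ratios overlapped between the groups. Kcnip2 to Kcnd2 had means of 5.44 ± 2.4 and 6.67 ± 2.4, Kcnd3 to Kcnd2 0.33 ± 0.0796 and 0.408 ± 0.117, and Kcnj12 to Kcnj2 1.37 ± 0.792 and 1.25 ± 0.497. Kcnj8 to Kcnj11 had means of 0.383 ± 0.147 and 0.397 ± 0.202, and Kcnj3 to Kcnj5 had means of 0.666 ± 0.201 and 0.469 ± 0.159.

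**Figure D2:**
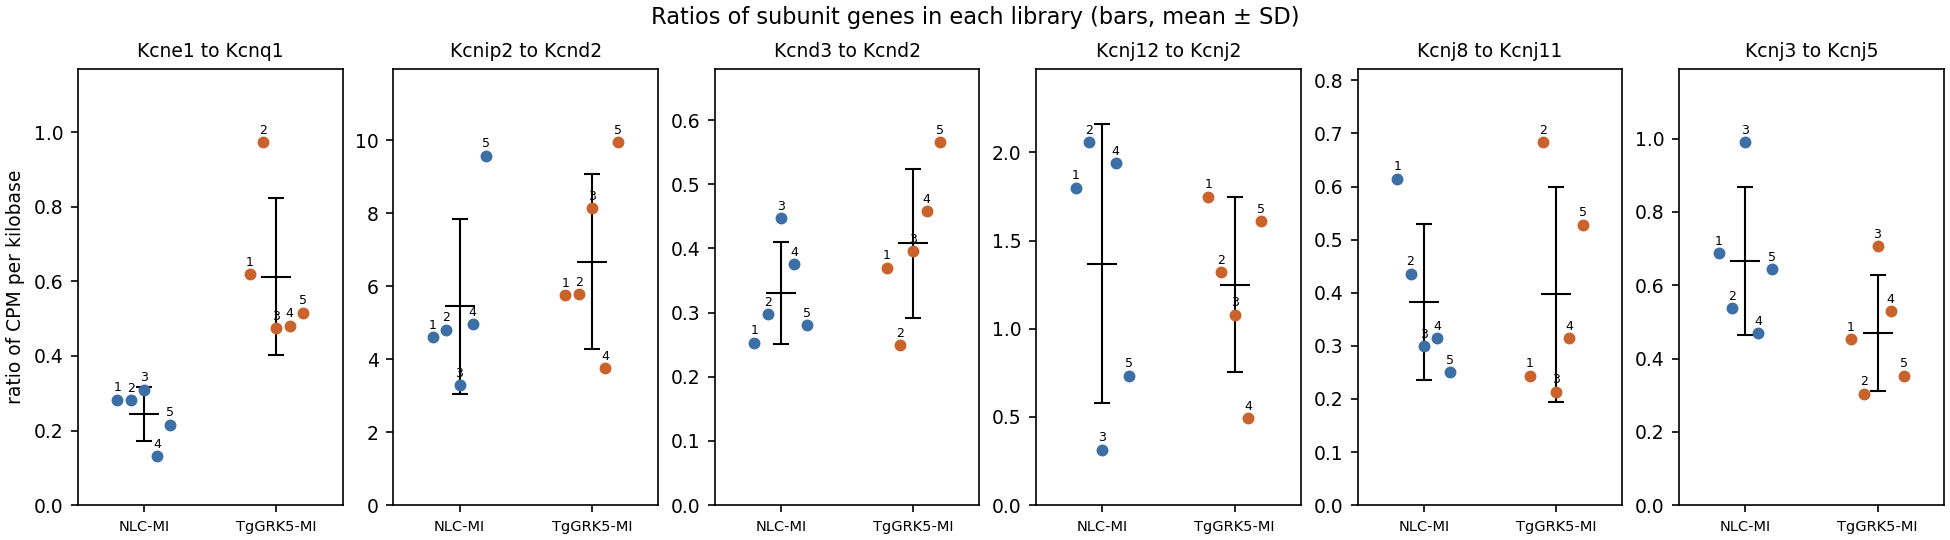
Ratio of CPM per kilobase of exon between pairs of subunit genes (vertical axis) in each NLC-MI (blue) and TgGRK5-MI (orange) library, with replicate numbers and bars for the mean ± SD. Kcne1 to Kcnq1 ran from 0.132 to 0.31 in NLC-MI and from 0.475 to 0.974 in TgGRK5-MI, and the other 5 ratios overlapped.

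Markers of conduction and pacemaker cells, in which Kcne1 and other members are also known to be expressed, differed in the same libraries. Their summed level was 39.37 to 71.85 CPM in NLC-MI and 31.31 to 39.03 CPM in TgGRK5-MI, without overlap. Of the 7 tested markers of this list, 0 were lower at an edgeR adjusted p under 0.10. At an unadjusted p under 0.05, 4 were lower, against 2.1% of all genes tested. Among those 4 were the pacemaker channel Hcn4 (6.24 ± 2.83 and 1.76 ± 0.656 CPM, log2 fold change -1.82, edgeR adjusted p = 0.211), the T-type calcium channel Cacna1g (-0.62) and the adhesion molecule Cntn2 (-0.69). Tbx3 (-0.37), Shox2 (-0.05) and Gja5 (0.10) did not pass that threshold. Isl1 was under the filter with 0 to 3 counts. The part of these cells in the Kcn values was not tested.

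Among the voltage-gated pores, 15 of 30 members were tested, of which 4 had log2 fold changes above 0 and 11 below 0, and 2 had an unadjusted p under 0.05. Kcnh2 carries the rapid delayed rectifier current. It was at 41.5, 55.8, 37.8, 61.5 and 94.5 CPM in NLC-MI and at 39.1, 29.1, 44.5, 21.9 and 35.6 CPM in TgGRK5-MI. The transgenic libraries all lay below the NLC-MI mean, but the groups overlapped between NLC-MI replicates 1 and 3 and TgGRK5-MI replicates 1 and 3. The means were 58.2 ± 22.5 and 34.1 ± 8.80 CPM (SD, n = 5 each), with a log2 fold change of -0.77 (standard error 0.26, 95% interval -1.35 to -0.20, unadjusted p = 0.0127 in edgeR, and p = 0.0476 in the exact permutation test). Kcnh2 kept an unadjusted p under 0.05 in all 25 alternatives tried, where it ran from 0.00218 to 0.0357 in edgeR, limma and DESeq2, and passed the adjusted threshold in 0 of them.

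Kcnd2, which forms the fast transient outward current of the mouse ventricle, was at 16.1, 18.6, 21.1, 18.2 and 30.3 CPM in NLC-MI and at 18.5, 11.95, 18.5, 12.4 and 9.93 CPM in TgGRK5-MI. TgGRK5-MI replicates 2, 4 and 5 were lower than every NLC-MI library, and replicates 1 and 3 were not. The log2 fold change was -0.55 (95% interval -1.05 to -0.05, unadjusted edgeR p = 0.0349, exact permutation p = 0.0714). Kcnd3, the other pore of that current, had means of 12.8 ± 4.03 (NLC-MI) and 10.6 ± 3.14 CPM (TgGRK5-MI), with a log2 fold change of -0.27 and an interval from -0.87 to 0.34.

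Kcna5, the pore of the ultrarapid delayed rectifier, was at 17.9 ± 4.30 and 19.4 ± 8.996 CPM, with a log2 fold change of 0.11 and an interval from -0.54 to 0.76. Kcna4, a pore of the slow transient outward current, was at 2.67 ± 1.36 and 2.65 ± 0.851 CPM, with an interval from -0.77 to 0.79. For these pores the intervals hold 0, and differences smaller than their bounds could not be shown with 5 mice a group. Other tested pores, among them Kcna2, Kcna6, Kcna7, Kcnd1, Kcnh1 and Kcnq3, had log2 fold changes between -0.38 (Kcna6) and 0.07 (Kcna7), and the group means of these 6 lay between 0.402 CPM (Kcnh1) and 2.56 CPM (Kcnd1).

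**Figure D3:**
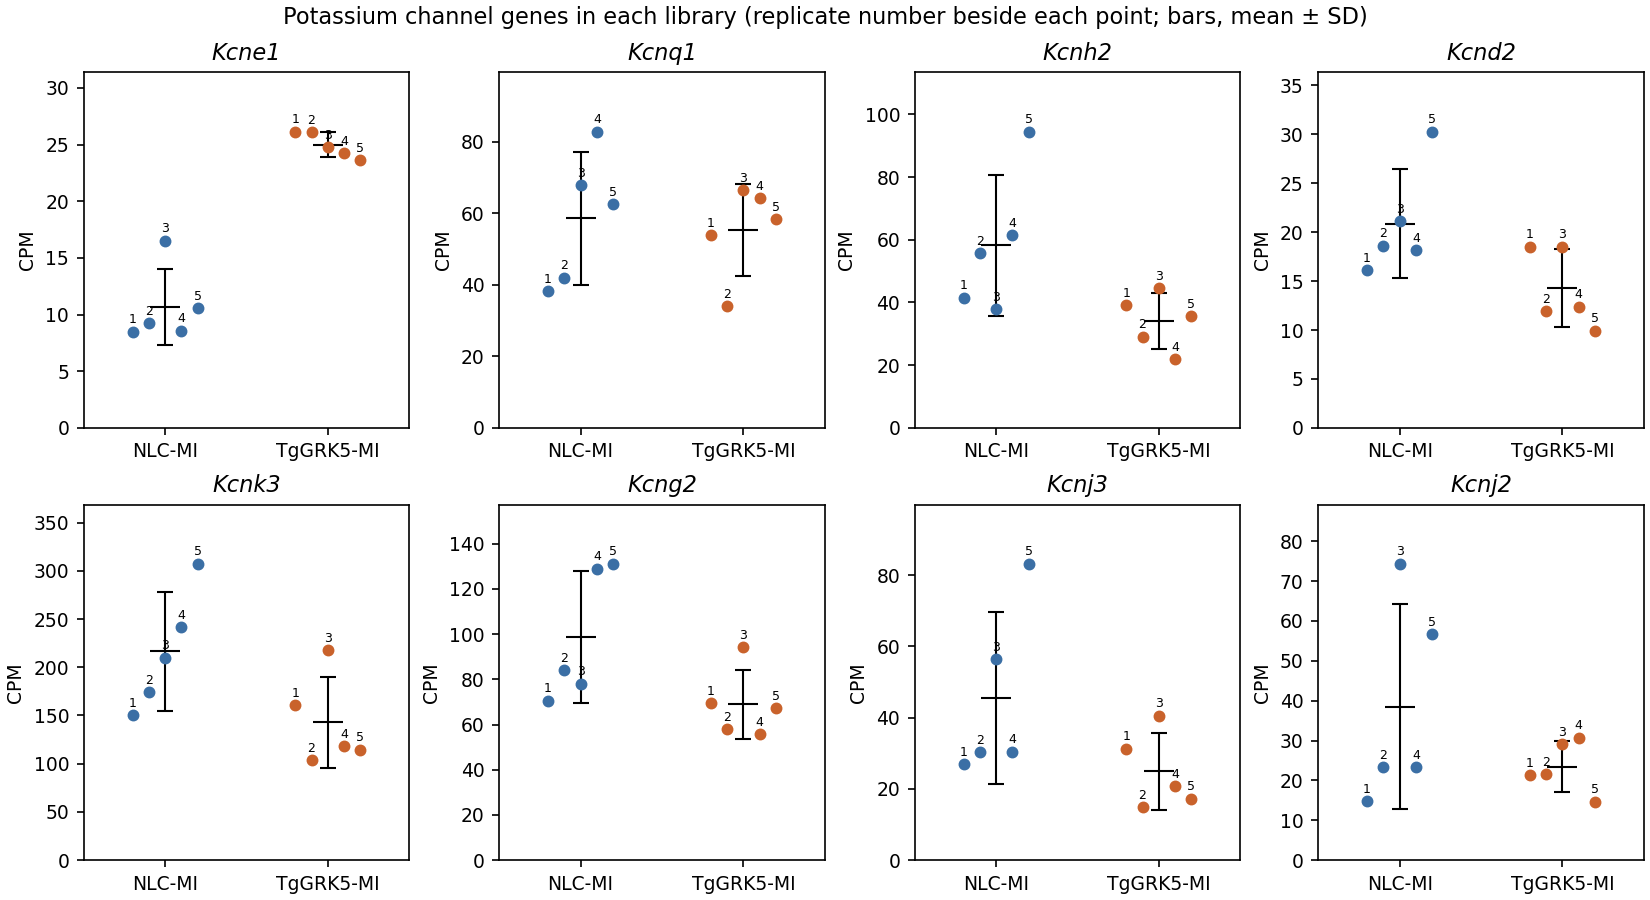
CPM (vertical axis, from 0) of 8 potassium channel genes in each NLC-MI (blue) and TgGRK5-MI (orange) library, with the replicate number beside each point and bars for the mean ± SD. Kcne1 ran from 8.50 to 16.5 CPM in NLC-MI and from 23.6 to 26.2 CPM in TgGRK5-MI, while the other 7 genes overlapped between the groups.

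The electrically silent modifiers form no channel alone but join other voltage-gated pores, and 2 of 10 were tested. Kcng2 was at 70.5, 84.0, 78.0, 129 and 131 CPM in NLC-MI and at 69.3, 58.0, 94.4, 55.9 and 67.1 CPM in TgGRK5-MI. The transgenic libraries other than replicate 3 lay below every NLC-MI library. Kcng2 had a log2 fold change of -0.52 (95% interval -0.99 to -0.04, unadjusted edgeR p = 0.0348, exact permutation p = 0.0635). An opposite-strand gene, D330025C20Rik, shares 272 exon bases with Kcng2 and had 46 to 233 counts against 518 to 2752 for Kcng2. The other tested modifier, Kcnv2, was at 14.1 CPM in NLC-MI replicate 5 and between 1.41 and 5.22 CPM in the other libraries, with a log2 fold change of -0.53 and an interval from -1.87 to 0.81.

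Besides Kcne1, 6 of the 13 accessory subunits were tested. Kcnip2, a calcium-binding protein that raises the surface level of the Kcnd pores, was at 49.98, 60.5, 46.8, 60.6 and 196 CPM in NLC-MI and at 71.8, 46.6, 102, 31.5 and 66.7 CPM in TgGRK5-MI. NLC-MI replicate 5 was far above the other libraries, and the log2 fold change was -0.38 with an interval from -1.30 to 0.55, but 0.22 without that library. Kcnab1, a beta subunit of voltage-gated pores, was at 1.22 ± 0.510 and 1.24 ± 0.414 CPM, with an interval from -0.70 to 0.92. The others were Kcnab2 (log2 fold change 0.22), Kcnip3 (-0.07), Kcne4 (-0.21) and Kcne3 (-0.28), with intervals that held 0. Of the Kcne genes, which share the single-span structure of Kcne1, Kcne3 and Kcne4 thus had log2 fold changes opposite in sign to that of Kcne1, and whether they differ from it was not tested.

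Of the 15 inward rectifiers, 8 were tested, with 6 log2 fold changes below 0 and 2 above 0. Kcnj3 forms the acetylcholine-activated channel together with Kcnj5 and is best known from atrial and nodal cells. It was at 27.0, 30.3, 56.4, 30.5 and 83.2 CPM in NLC-MI and at 31.3, 14.8, 40.5, 20.8 and 17.3 CPM in TgGRK5-MI. NLC-MI replicates 3 and 5 were the highest libraries, and the groups overlapped. The log2 fold change was -0.87 (95% interval -1.66 to -0.07, unadjusted edgeR p = 0.0358, exact permutation p = 0.103). Kcnj3 shares 1621 exon bases with the opposite-strand Gm26794, whose row held 1 to 6 counts. Of the 6 tested atrial markers, 1 was lower at an unadjusted p under 0.05, against 2.1% of all genes tested. It was Myl7 (log2 fold change -1.27, edgeR adjusted p = 0.9999). The other tested atrial markers did not pass that threshold, with log2 fold changes from -0.83 (Myl4) to -0.04 (Nppa). The summed atrial list ran from 1238 to 3831 CPM in NLC-MI and from 1015 to 3512 CPM in TgGRK5-MI. The part of atrial cells in the Kcnj3 values was not tested.

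Kcnj5 was at 35.2, 50.6, 51.1, 58.3 and 116 CPM in NLC-MI and at 62.1, 43.8, 51.6, 35.4 and 44.0 CPM in TgGRK5-MI, with a log2 fold change of -0.39 and an interval from -1.02 to 0.23, and -0.05 without NLC-MI replicate 5. Kcnj2, the main pore of the inward rectifier current of ventricular cells, was at 14.9, 23.3, 74.3, 23.3 and 56.6 CPM in NLC-MI and at 21.3, 21.6, 29.1, 30.7 and 14.7 CPM in TgGRK5-MI. As with Kcnj3, NLC-MI replicates 3 and 5 were the highest, and the other NLC-MI libraries lay inside the range of TgGRK5-MI. Kcnj2 had a log2 fold change of -0.71 with an interval from -1.59 to 0.17 (unadjusted edgeR p = 0.104, exact permutation p = 0.317). Without NLC-MI replicate 3 the log2 fold change of Kcnj2 was -0.33. Kcnj12, its partner pore, was at 18.7 ± 5.65 and 13.7 ± 4.22 CPM, with a log2 fold change of -0.44 and an interval from -1.03 to 0.14.

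The pores of the ATP-sensitive channel open when the energy supply of the cell falls. Kcnj11, the ventricular pore, averaged 105 ± 49.3 (NLC-MI) and 86.4 ± 29.3 CPM (TgGRK5-MI), with a log2 fold change of -0.29 and an interval from -0.95 to 0.37, and 0.03 without NLC-MI replicate 5. Kcnj8, the pore best known from smooth muscle and pericytes, was at 25.1 ± 5.59 and 21.2 ± 5.70 CPM, with an interval from -0.72 to 0.22. The regulatory subunit Abcc9 had a log2 fold change of -0.67 (221 ± 93.4 and 139 ± 31.03 CPM, an unadjusted p under 0.05), and Abcc8 had one of -0.14. The remaining tested inward rectifiers were Kcnj14 (log2 fold change 0.19) and Kcnj15 (0.42, interval -1.002 to 1.85).

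Of the 14 tandem-pore leak channels, 5 were tested. Kcnk3, which carries an acid-sensitive background current, had the highest level per kilobase of all members and made up 14.95% to 23.2% of their summed CPM per kilobase in each library. It was at 150, 174, 210, 242 and 307 CPM in NLC-MI and at 160, 104, 218, 118 and 115 CPM in TgGRK5-MI. TgGRK5-MI replicates 2, 4 and 5 lay below every NLC-MI library, and replicates 1 and 3 lay among them. The log2 fold change was -0.60 (95% interval -1.14 to -0.06, unadjusted edgeR p = 0.032, exact permutation p = 0.0556). Kcnk3 shares 229 exon bases with the opposite-strand Gm9899, which had 77 to 301 counts against 1094 to 5158 for Kcnk3. Kcnk5 (log2 fold change -0.64, interval -1.67 to 0.40), Kcnk2 (-0.18), Kcnk6 (0.002) and Kcnk13 (0.42) had intervals that held 0.

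Of the 12 members opened by calcium or sodium or assisting such channels, 6 were tested, with 3 log2 fold changes above 0 and 3 below 0, and 0 had an unadjusted p under 0.05. Kcnn2, a small-conductance calcium-activated pore of cardiomyocytes, was at 8.004 ± 3.30 and 7.02 ± 3.39 CPM, with a log2 fold change of -0.19 and an interval from -0.94 to 0.56, and 0.07 without NLC-MI replicate 5. Kcnma1, the large-conductance pore, was under the filter with 0 to 15 counts in NLC-MI and 0 to 9 counts in TgGRK5-MI. Its smooth muscle subunit Kcnmb1 passed, with a log2 fold change of 0.34 and an interval from -0.61 to 1.30. Kcnn1 (-0.27), Kcnn3 (0.22), Kcnn4 (-0.01) and Kcnt2 (0.13) made up the rest.

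Calls among the 5 members with lower values changed with single libraries, other than that of Kcnh2. Without NLC-MI replicate 5, or without TgGRK5-MI replicate 2, 4 or 5, the number with an unadjusted edgeR p under 0.05 was 1, which was Kcnh2 each time, and without NLC-MI replicate 1 it was 7. NLC-MI replicate 5 held the highest value of its group for all 5 genes and also the highest summed cardiomyocyte markers, 147800 CPM against 57020 to 87280 CPM in the other NLC-MI libraries and 62010 to 123500 CPM in TgGRK5-MI. With the cardiomyocyte marker sum as a covariate, all 5 kept an unadjusted edgeR p under 0.05. The part of cardiomyocyte content in the values of these 5 genes was not tested. For these 5 genes the log2 fold changes stayed below 0 in all 25 alternatives. With each library left out they ran from -0.90 to -0.54 for Kcnh2, from -0.81 to -0.45 for Kcnk3, from -0.67 to -0.40 for Kcng2, from -0.67 to -0.38 for Kcnd2 and from -1.12 to -0.54 for Kcnj3. For each of the 5 genes the value nearest 0 was that without NLC-MI replicate 5.

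Per kilobase of exon, the level of the tested members ran from 0.0588 CPM per kilobase (Kcnh1) upward. The 10 highest were Kcnk3 with a mean of 45.2 CPM per kilobase over the 10 libraries, Kcng2 with 28.0, Kcnj11 with 26.1, Kcnip2 with 21.1, Kcnq1 with 13.9, Kcnj5 with 11.7, Kcnh2 with 9.52, Kcnj8 with 9.09, Kcnj3 with 6.75 and Kcna5 with 6.51. Together they held 67.2% to 85.3% of the summed CPM per kilobase of all members in each library. Neighbours in this order overlapped across libraries, and the order is given without a test. Kcne1 was at place 13, with 3.33 ± 1.05 CPM per kilobase in NLC-MI and 7.77 ± 0.348 in TgGRK5-MI. The summed level of all members was 189.6 to 378.9 CPM per kilobase in NLC-MI and 166.1 to 260.3 in TgGRK5-MI.

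**Figure D4:**
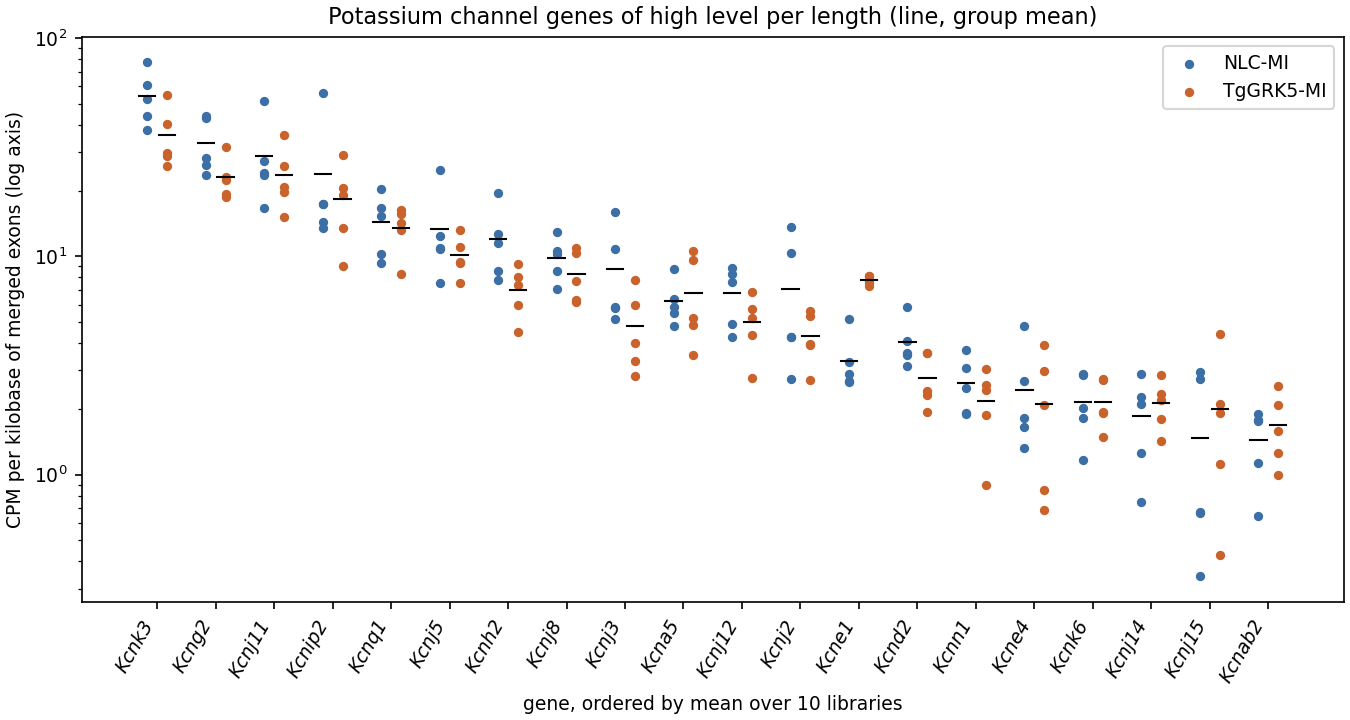
Level per kilobase of merged exons (vertical log axis, CPM per kilobase) of 20 potassium channel genes of high level in NLC-MI (blue) and TgGRK5-MI (orange) libraries, with a line at each group mean. Kcnk3 is the highest at a mean of 45.2 over all libraries, and Kcne1 is the gene whose groups do not overlap.

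Kcnj15 and Kcnn4, chosen after their values were seen, are set here beside the fibroblast and macrophage markers. Kcnj15, an inward rectifier, was at 17.3, 18.7, 4.20, 4.27 and 2.16 CPM in NLC-MI and at 13.2, 27.7, 2.70, 12.1 and 7.08 CPM in TgGRK5-MI. Kcnn4, a calcium-activated pore of immune cells and fibroblasts, was at 7.84, 7.08, 2.62, 6.19 and 3.20 CPM in NLC-MI and at 4.34, 10.6, 1.39, 4.64 and 5.90 CPM in TgGRK5-MI. Both were lowest in TgGRK5-MI replicate 3 within that group and highest in TgGRK5-MI replicate 2, which had the highest fibroblast sum (24610 CPM) and macrophage sum (2300 CPM) of all libraries. In NLC-MI, Kcnn4 was at 6.19 CPM in replicate 4 and 7.08 CPM in replicate 2, with fibroblast sums of 7424 and 23980 CPM. The part of other cells in these values was not tested.

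Within each group, 7 of the 43 members (16.3%) were lower in the 3 libraries with the lowest fibroblast sums than in all others, namely Kcnab2, Kcnd1, Kcnh1, Kcnj15, Kcnk2, Kcnn4 and Kcnt2. Another 6 (14%) were higher there, among them Kcnd2, Kcnd3, Kcnj3, Kcnn2 and Kcnv2. Over all genes tested the shares were 11.6% and 10.5%. With the fibroblast sum as a covariate, the same 5 members had lower values at an unadjusted p under 0.05, and Kcnj15 was higher beside Kcne1. Without the 3 libraries of lowest fibroblast sum, Kcnd2 and Kcnj3 no longer had an unadjusted p under 0.05, and Kcnk5 was lower at that threshold.

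**Figure D5:**
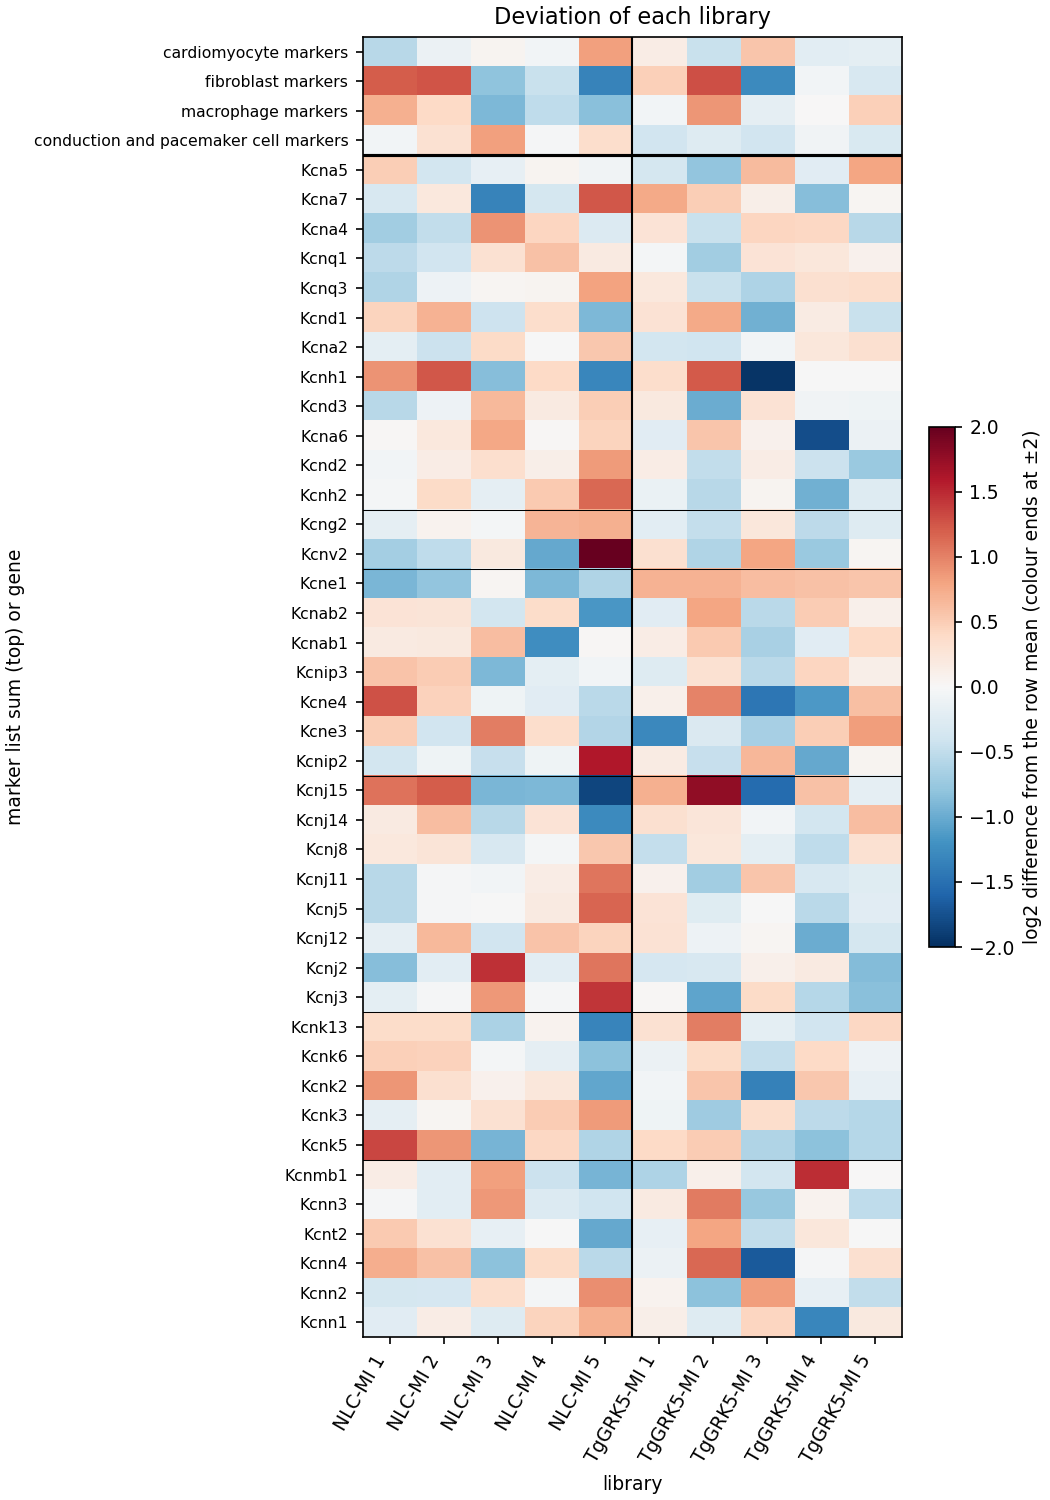
Log2 difference of each library (columns) from the row mean over 10 libraries, for the summed markers of 4 cell types (top rows) and 40 of the 43 tested potassium channel genes by role, with red above and blue below the mean and colours that end at ±2. Kcne1 is below or near its mean in the NLC-MI columns and above it in the TgGRK5-MI columns, and Kcnj15 and Kcnn4 are lowest in libraries with few fibroblast markers.

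Of the 51 members under the filter, 10 had 0 counts in every library, 24 had a largest count of 1 to 9, and 17 had 10 or more counts in at least 1 library. The 17 were Kcna1, Kcna3, Kcnab3, Kcnc1, Kcnc2, Kcne1l, Kcng4, Kcnh3, Kcnip1, Kcnj4, Kcnj10, Kcnk1, Kcnma1, Kcnmb4, Kcnq5, Kcns1 and Kcnt1. Kcnip4 and Kcnj13 had 0 counts in all NLC-MI libraries and at most 1 count in a TgGRK5-MI library, and Kcnf1, Kcnh8, Kcnj1, Kcnk4 and Kcnmb3 had 0 counts in all TgGRK5-MI libraries and at most 1 count in an NLC-MI library. No difference was detectable for these 7 genes at this depth.

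Genes that work beside the potassium channels were read from hand-written lists, and 0 genes of any list passed an edgeR adjusted p of 0.10. Of 16 tested partners without the Kcn name, 3 were lower at an unadjusted p under 0.05, Abcc9 and Hcn4 among them, and 0 were higher. Of 30 tested sodium, calcium and gap junction genes, 2 were higher and 5 lower. Over all genes tested, 1.74% were higher and 2.1% were lower at that threshold. The sodium channel beta subunit Scn3b was among the higher (log2 fold change 1.15). Among the lower were the calcium channel pores Cacna1c (-0.77), Cacna1g (-0.62) and Cacna1h (-0.86), and the ryanodine receptor Ryr2 (-0.93). Of 19 tested transcription factors tied to channel expression, 0 had an unadjusted p under 0.05.

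Among the other cell marker lists, 0 tested genes had an unadjusted p under 0.05 for fibroblasts (7 tested), blood endothelium (6), smooth muscle (6), macrophages (7), neutrophils (4), T and B lymphocytes (2) and Schwann cells and neurons (4). Of 6 tested pericyte markers, Cspg4 was lower (log2 fold change -0.62). The sex-linked list had 0 of 4 tested genes with an unadjusted p under 0.05, and all 10 libraries held 158 to 223 CPM of Y-linked genes. Xist, expressed in female cells, was under the filter at 0 to 0.918 CPM.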

How the data were processed

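Cardiomyocyte RNA of 10 mice was sequenced from libraries made with an Illumina TruSeq kit, 1 library per mouse. The counts deposited by the authors are whole numbers per Ensembl identifier without normalization. Per the labels, the submitters' processing notes name Bowtie2, RSEM 1.2.31, DESeq2 and mm10, without their roles. RSEM estimates counts that need not be whole, and how the deposited counts became whole is not given in the sources used here, nor are the annotation and strand setting. Without strand, reads of genes that overlap on opposite strands cannot be told apart.

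Symbols, exons and coordinates came from the GENCODE M21 annotation (GRCm38), with entries for 51596 of 51789 identifiers. In R 4.3.3, edgeR 4.0.16 was used with TMM factors and the quasi-likelihood F test (legacy=FALSE) on 15168 genes with 10 or more counts in at least 5 libraries. The Benjamini-Hochberg adjustment ran over all genes tested, with a threshold of 0.10, as in the study. Standard errors are the log2 fold change over the root of F. CPM per kilobase divides by merged exon length. The exact permutation test placed the libraries in all 252 ways on log2 CPM (prior count 2), with a smallest two-sided p of 0.00794. Each library is a separate mouse. No duplicated library was seen, with correlations of log2 CPM between libraries from 0.894 to 0.985.

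The members, 15 lists and 6 roles were chosen with earlier results of these data known, and 4 alternatives were added after seeing the data. The members described in full were those with an unadjusted p under 0.05 or non-overlapping groups, those that carry named cardiac currents, and the 10 of highest level per length, and Kcnj15 and Kcnn4 were chosen after their values were seen. Alternatives were other scalings, filters, DESeq2 1.42.0, limma 3.58.1, covariates, the replicate block and each library left out. The test was also run on simulated counts. These were drawn around a common mean profile, so they do not show how it behaves with the differences in fibroblast markers seen here. Promoter windows came from RefSeq (GRCm38.p6), which had windows for 29 of the 43 tested members. A few members and list genes are left out of the text and plots, though counts include them.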

Additional observations from a re-analysis of the deposited data

Results flagged for a closer look

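In 6 of 86 groups of 5 libraries, 1 library stood apart by Dixon's test, where chance gives about 1 group in 20. In NLC-MI replicate 5, Kcnip2 reached 195.6 CPM (46.8 to 60.6 CPM in the rest of its group), Kcnj5 was at 116.3 CPM against 35.2 to 58.3 CPM, and Kcnv2 was at 14.13 CPM against 1.41 to 3.41 CPM. In NLC-MI replicate 3, Kcne1 was at 16.52 CPM against 8.50 to 10.6 CPM, and Kcnn3 was at 1.573 CPM against 0.589 to 0.793 CPM. In TgGRK5-MI replicate 4, Kcnmb1 was at 11.65 CPM against 2.64 to 4.41 CPM.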

How the results depend on the processing

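The log2 fold change of Kcne1 stayed above 0, with an unadjusted p under 0.05, in all 25 alternatives, and 14 of them kept its adjusted p under 0.10. With the sex-linked genes as a covariate it was 1.33 (edgeR adjusted p = 0.666), 0 Kcn genes and 2 of all genes passed the adjusted threshold, and 10 Kcn genes had lower values at an unadjusted p under 0.05. All libraries held Y-linked RNA, so this covariate separates no sexes. With the replicate block the log2 fold change of Kcne1 was 1.27 (edgeR adjusted p = 0.146), 0 Kcn genes passed and 3 were lower. Same-numbered libraries had correlations of 0.065, 0.662, 0.38, -0.34 and 0.085, against -0.607 to 0.729 for different numbers. These overlapping values cannot decide whether the replicate numbers pair the libraries. With each library left out, the log2 fold change of Kcne1 ran from 1.16 to 1.44, the Kcn genes past the adjusted threshold from 0 to 1, the lower Kcn genes from 1 to 7 and all genes past the adjusted threshold from 3 to 10. All genes past that threshold, 11 in the fit as reported, numbered 18 with library size alone, 68 with DESeq2, 48 with limma-voom, 7 with the legacy fit, 18 with no filter, 28 with the fibroblast covariate, 32 with the cardiomyocyte covariate and 5 with only the libraries above 15000000 counts. With the fibroblast covariate, 2 Kcn genes were higher. The cause of these shifts was not tested. Of the values for other named members, 28 no longer passed an unadjusted p of 0.05, 7 newly passed it and the rest stayed on their side of it. Among the rest, Kcnj2 without the 3 libraries of lowest fibroblast sum was at 0.09. In all, 23 values of 8 genes (Kcna4, Kcna5, Kcnab1, Kcnip2, Kcnj2, Kcnj11, Kcnn2 and Kcnq1) had another sign than reported, 0 of them with an unadjusted p under 0.05 in edgeR, limma or DESeq2. The shallowest libraries, with 7968779 and 9114469 counts, limit members near 3 counts.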
